A study of Mus musculus with 11 samples.

Results

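The proteasome genes of cultured mouse microglia were taken by name: every gene whose symbol starts with Psm, a letter from a to g and a digit was considered. Of 34745 genes in the deposited table, 54 matched, and 48 of these reached 1 FPKM (a level in fragments, scaled by gene length and library size) in at least 2 of the 11 libraries. The 6 that did not were 4 pseudogenes (Psmb5-ps, Psmb6-ps, Psmb6-ps2 and Psmb7-ps2), the thymic catalytic subunit Psmb11 and Psmc3ip, a recombination factor that shares only the name. Of the 48, 47 reached the minimum in all 11 libraries. Psma8, an alpha subunit known from testis, lay at the edge, at 0.693 to 2.36 FPKM.

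The cells were microglia, the resident macrophages of the brain, isolated from cerebrum of 6 to 8 week old C57BL/6 animals and then cultured for 10 to 14 days. All groups shared a medium with TGF-beta1 (5 ng/ml) and M-CSF (10 ng/ml). Control cells (n = 3 libraries) received no agent, the Pam3CSK4 group (n = 2) that Toll-like receptor 2 agonist at 100 ng/ml over 24 h, and the IFN-gamma group (n = 3) interferon-gamma at 20 ng/ml over 24 h. The combined group (n = 3) received Pam3CSK4 first and IFN-gamma afterwards, at these same doses and durations. One label field of combined replicates 2 and 3 spells the agonist Pam3CSK5 and Pam3CSK6, and their titles, which say Pam3CSK4, were followed. The labels do not say whether the agonist was washed out, at what point relative to the IFN-gamma step the remaining cells were harvested, or whether replicates came from separate mice or cultures. The p-values therefore measure the spread between these libraries, which may be technical.

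The proteasome degrades proteins tagged with ubiquitin and produces most peptides that MHC class I molecules present. Its 20S core is a stack of rings of alpha and beta subunits, and the beta subunits Psmb6 (beta1), Psmb7 (beta2) and Psmb5 (beta5) carry the active sites. Interferon-gamma is known to induce alternative subunits, Psmb9 (beta1i), Psmb10 (beta2i) and Psmb8 (beta5i), which replace them in newly built immunoproteasomes, and the PA28 cap made of Psme1 and Psme2. The 19S regulatory particle, with an ATPase ring (Psmc genes) and non-ATPase subunits (Psmd genes), recognises, unfolds and feeds in ubiquitinated substrates.

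Library totals ran from 15033702 to 20321017 counts, and every member other than Psma8 had at least 102 counts in each library. Psma8 had 21 to 70. All 10 microglial markers examined were detected in every library, their lowest level being 1.32 FPKM (P2ry12). In 3 libraries, called stromal-marked here, transcripts of mural cells and fibroblasts were present as well: replicate 3 of Control, replicate 1 of IFN-gamma and replicate 3 of the combined group. The summed level of 12 such markers was 2270, 130 and 69.6 FPKM in these, and 17.4 to 63.5 FPKM in the other 8 libraries. In those 8, most of the sum came from Cspg4, at 15.8 to 61.2 FPKM. Cspg4 did not follow the stromal marking, at 57.45, 9.83 and 14.0 FPKM in the 3 stromal-marked libraries. The collagen gene Col1a1 was at 430, 11.4 and 3.26 FPKM in the 3 and at most 0.139 FPKM in the other 8. The smooth muscle actin gene Acta2 was at 865, 44.1 and 10.5 FPKM in these 3, while Myh11, Des, Rgs5 and Lum did not exceed 0.41 FPKM in any library. Markers of other cells were examined as lists. The 5 endothelial markers summed to 16.2 to 28.5 FPKM in the 6 libraries not given Pam3CSK4 and to 1.71 to 3.58 FPKM in the 5 given it. This difference was mainly that of Flt1, at 11.0 to 28.3 FPKM in the 6 and 1.16 to 1.55 FPKM in the 5. Pecam1 went the other way, with means of 0.204 FPKM in Control, 0.298 with Pam3CSK4, 0.120 with IFN-gamma and 0.506 with both. Cdh5 reached 13.7 FPKM in Control replicate 3, and Cldn5 was listed at 0 in all 11. The 5 oligodendrocyte markers summed to 7.87 to 15.3 FPKM, with Mog at 0 throughout, and the 6 markers of other immune cells to 3.91 to 11.4 FPKM, with Cd3e at 0 throughout. Astrocyte markers summed to 0.0726 to 30.9 FPKM and neuronal markers to 0.0862 to 10.7 FPKM. The upper values came from 1 gene each, Gja1 at 30.8 FPKM in Control replicate 3 and Tubb3 at 10.7 FPKM in IFN-gamma replicate 1. The other astrocyte markers did not exceed 0.326 FPKM in any library, and the other neuronal markers did not exceed 0.0436 FPKM. The part of such cells in the results was not tested. Because the libraries are bulk samples, fewer cells of a type and less RNA per cell cannot be told apart.

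Most proteasome genes were higher with each agent than in Control. Differences were tested with the quasi-likelihood test of edgeR over all 10938 genes that met the FPKM rule, and p-values were adjusted by Benjamini-Hochberg. Genes with an adjusted p under 0.05 are called higher or lower. With Pam3CSK4, 38 of the 48 were higher than in Control, against 20.0% of all genes tested. With IFN-gamma 39 were higher, against 20.0%, and with both agents 41, against 23.4%. No member was called lower in the 3 comparisons, where 21.4%, 21.6% and 24.2% of all genes were. Among the 10 not called with Pam3CSK4 were Psmg2, a 20S assembly chaperone (-0.35 ± 0.14, adjusted p = 0.0759), and Psmf1, the inhibitor PI31 (-0.29 ± 0.11, adjusted p = 0.0564). With 1 FPKM required in all libraries 2 members were lower with Pam3CSK4, limma gave 1 lower with both agents, and with 1 library left out 0 to 1 were lower in each of these comparisons. The median log2 change of the members was 0.59, 0.60 and 0.65, while the medians over all genes tested were -0.04, -0.07 and -0.04. Summed over the 48 genes, the level rose from 1226 to 1408 FPKM in Control libraries to 2140 and 2201 FPKM with Pam3CSK4, 2300 to 2556 FPKM with IFN-gamma and 2407 to 2466 FPKM with both. The sums of the 3 treated groups lay above every Control sum, and those of IFN-gamma and the combined group overlapped. Psme2b, a near copy of Psme2 described below, is part of these sums. Its means were 55.2 FPKM in Control, 212 with Pam3CSK4, 340 with IFN-gamma and 323 with both.

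**Figure D1:**
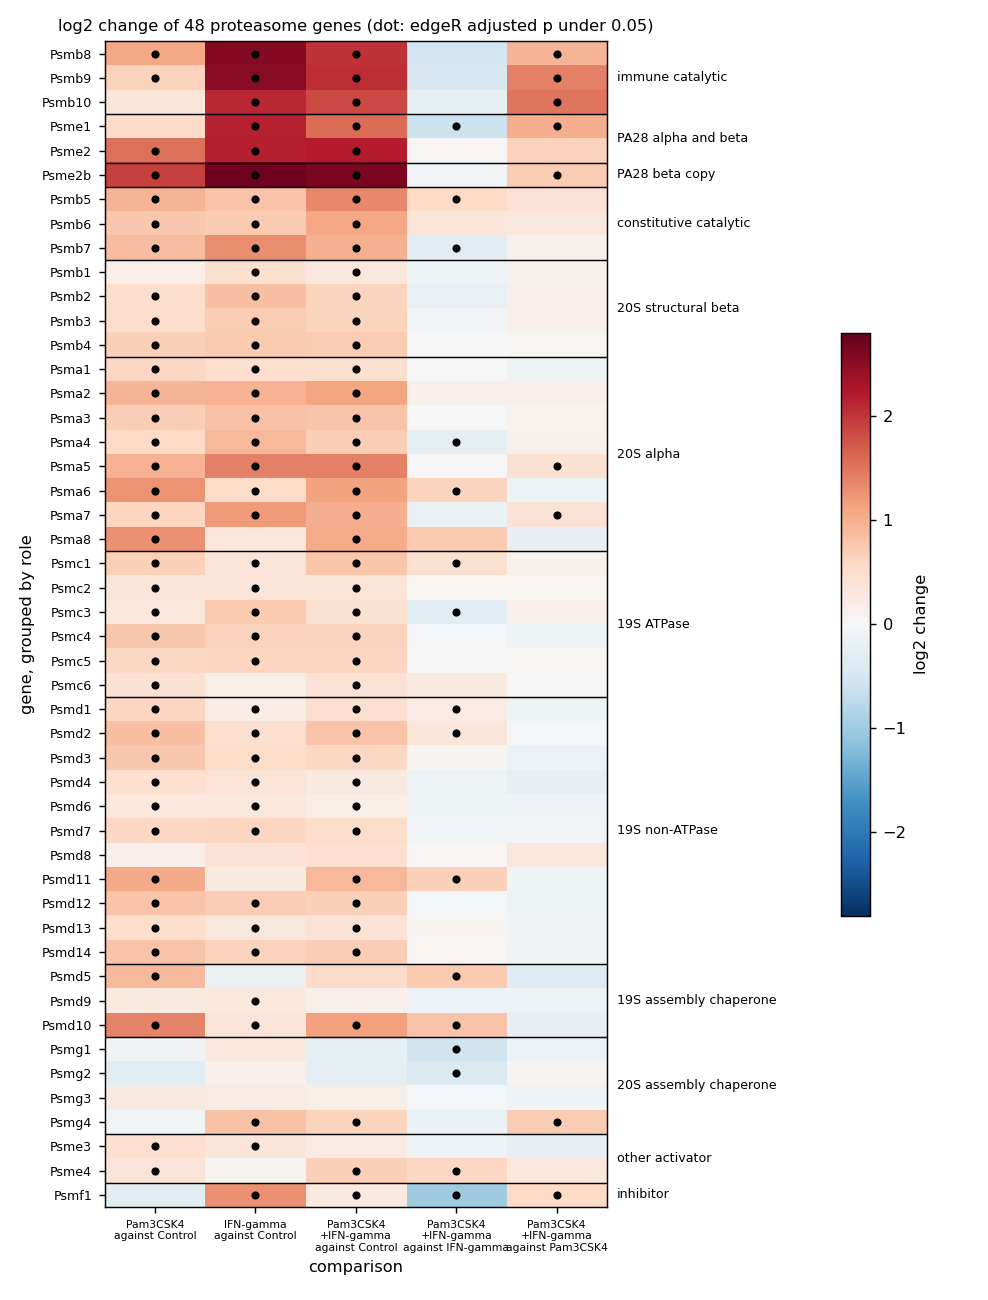
Heat map of the log2 change of the 48 proteasome genes (rows, grouped by role) in 5 comparisons (columns); colour gives the log2 change from blue (lower) to red (higher), and a black dot marks an edgeR adjusted p under 0.05. The immune catalytic and PA28 genes are darkest with IFN-gamma, at log2 changes of 2.11 to 2.72, whereas the 19S genes lie between 0.14 and 1.05 with Pam3CSK4 and between 0.15 and 0.73 with IFN-gamma.

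The immune catalytic subunits gave the strongest response to IFN-gamma among the catalytic genes. Psmb8, the immune counterpart of Psmb5 (chromosome 17, 34197721 to 34201454 on mm10), was at 32.3, 30.8 and 20.3 FPKM in the Control libraries. It was at 58.9 and 60.8 FPKM with Pam3CSK4, at 147, 143 and 175 FPKM with IFN-gamma, and at 108, 109 and 107 FPKM with both. The 4 groups did not overlap: the combined libraries lay between those given either agent alone. The log2 change against Control was 1.07 ± 0.22 (SE) with Pam3CSK4 (edgeR adjusted p = 0.00393), 2.56 ± 0.21 with IFN-gamma (adjusted p = 1.92e-05), a 5.91-fold rise, and 2.03 ± 0.21 with both (adjusted p = 4.19e-05). Against IFN-gamma alone, the combined group was at -0.53 ± 0.20, which did not pass (adjusted p = 0.0666). It passed without the 3 stromal-marked libraries (log2 change -0.57, adjusted p = 0.00444) and without Control replicate 3 alone, which enters through the shared estimate of spread (adjusted p = 0.00161). The rise in the combined group over Pam3CSK4 alone, 0.96 ± 0.23 (adjusted p = 0.0303), did not pass when either Pam3CSK4 library was left out (adjusted p = 0.176 and 0.161) or any 1 combined library (adjusted p = 0.0662 to 0.089). Psmb8 shares 498 exonic bases with Gm20496, an antisense gene on the opposite strand at a median of 0.864 FPKM.

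Psmb9, the counterpart of Psmb6 (chromosome 17, 34181988 to 34187764), had the lowest level of the 3 at 4.53, 4.93 and 3.51 FPKM in Control. It reached 6.35 and 7.36 FPKM with Pam3CSK4, 20.0, 22.7 and 27.3 FPKM with IFN-gamma, and 17.1, 17.7 and 16.3 FPKM with both agents. Again no group overlapped another. The log2 change was 2.52 ± 0.19 with IFN-gamma (edgeR adjusted p = 1.27e-05), 2.06 ± 0.19 with both (adjusted p = 2.43e-05) and 0.64 ± 0.20 with Pam3CSK4 (adjusted p = 0.0324). The Pam3CSK4 change did not pass without Pam3CSK4 replicate 1 (adjusted p = 0.0564) or replicate 2 (adjusted p = 0.189). The combined group against IFN-gamma alone gave -0.47 ± 0.18 (adjusted p = 0.0785), and it passed without the 3 stromal-marked libraries (-0.54, adjusted p = 0.00967) and without Control replicate 3 alone (adjusted p = 0.0164). Psmb9 shares 212 exonic bases with Tap1, the peptide transporter gene on the opposite strand; how the counting treated strand is not given in the sources used here, and Tap1 rose with IFN-gamma as well.

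Psmb10, the counterpart of Psmb7 (chromosome 8, 105935728 to 105938392), answered mainly to IFN-gamma. Its Control libraries were at 45.5, 42.1 and 33.4 FPKM and its Pam3CSK4 libraries at 48.5 and 55.5 FPKM. With IFN-gamma the levels were 168, 148 and 174 FPKM, and with both agents 133, 136 and 143 FPKM. The libraries given IFN-gamma stood well above those without it. On the log2 scale the change was 2.11 ± 0.16 with IFN-gamma (edgeR adjusted p = 1.15e-05), 1.85 ± 0.16 with both (adjusted p = 1.49e-05) and 0.34 ± 0.17 with Pam3CSK4, which did not pass (adjusted p = 0.138). Against IFN-gamma alone the combined group was at -0.26 ± 0.15 (adjusted p = 0.224), a difference that passed without Control replicate 3 (adjusted p = 0.0427). Added after Pam3CSK4, IFN-gamma raised Psmb10 by 1.51 ± 0.18 (adjusted p = 0.000777), and Psmb9 by 1.42 ± 0.22 (adjusted p = 0.00319).

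The PA28 genes split by their answer to Pam3CSK4. Psme1 (PA28 alpha, chromosome 14, 55578123 to 55581529) was at 21.2, 23.1 and 15.4 FPKM in Control, 29.6 and 29.5 FPKM with Pam3CSK4, 84.1, 71.3 and 96.2 FPKM with IFN-gamma, and 57.5, 59.1 and 50.3 FPKM with both. Groups did not overlap, with the combined libraries below those given IFN-gamma alone. Its log2 change was 2.16 ± 0.20 with IFN-gamma (edgeR adjusted p = 4.5e-05) and 0.54 ± 0.22 with Pam3CSK4, which did not pass (adjusted p = 0.0727) except without Control replicate 2 (0.70, adjusted p = 0.0398). In the combined group it fell by 0.60 ± 0.20 on the log2 scale against IFN-gamma alone (adjusted p = 0.0397). That call was lost when any 1 library outside Control was left out, other than IFN-gamma replicate 2 (adjusted p = 0.0549 to 0.132).

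Psme2 (PA28 beta, chromosome 14, 55587441 to 55591113) was at 11.5, 11.2 and 7.88 FPKM in Control and at 31.2 and 29.8 FPKM with Pam3CSK4. It reached 40.8, 41.9 and 46.8 FPKM with IFN-gamma, and 43.1, 44.9 and 45.2 FPKM with both. Unlike in Psme1, the combined libraries fell inside the range of those given IFN-gamma alone. Against Control, the log2 difference was 1.55 ± 0.19 with Pam3CSK4 (edgeR adjusted p = 0.000209), 2.17 ± 0.18 with IFN-gamma (adjusted p = 1.99e-05) and 2.20 ± 0.18 with both (adjusted p = 1.09e-05). The combined group differed from IFN-gamma alone by 0.03 ± 0.17 (adjusted p = 0.912), a difference whose sign turned when IFN-gamma replicate 1 was left out (-0.03), when the 3 stromal-marked libraries were left out (-0.03), and when the counts of Psme2 and its copy were summed (-0.04).

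Psme2b, a gene on chromosome 11 (48945354 to 48946190), was the highest of all 48 at a median of 314 FPKM. Its transcript is 99.4% identical to that of Psme2 over 794 aligned bases, with 5 mismatches, and the table gave it 173% of the counts of Psme2. The split of reads between both genes is therefore uncertain. Psme2b ran from 50.3 to 57.9 FPKM in Control, at 206 and 218 FPKM with Pam3CSK4, from 318 to 378 FPKM with IFN-gamma and from 314 to 333 FPKM with both. Its log2 changes against Control, 1.92 ± 0.14, 2.72 ± 0.13 and 2.63 ± 0.13 (edgeR adjusted p = 9.58e-06, 6.2e-07 and 5.53e-07), were smallest with Pam3CSK4, as for Psme2. With the counts of both genes summed, the combined group was higher than Pam3CSK4 alone by 0.69 (adjusted p = 0.028), where Psme2 by itself gave 0.65 ± 0.20 (adjusted p = 0.0743). Psme2 by itself passed without Control replicate 3 (adjusted p = 0.0011) and without the 3 stromal-marked libraries (0.64, adjusted p = 0.00208).

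**Figure D2:**
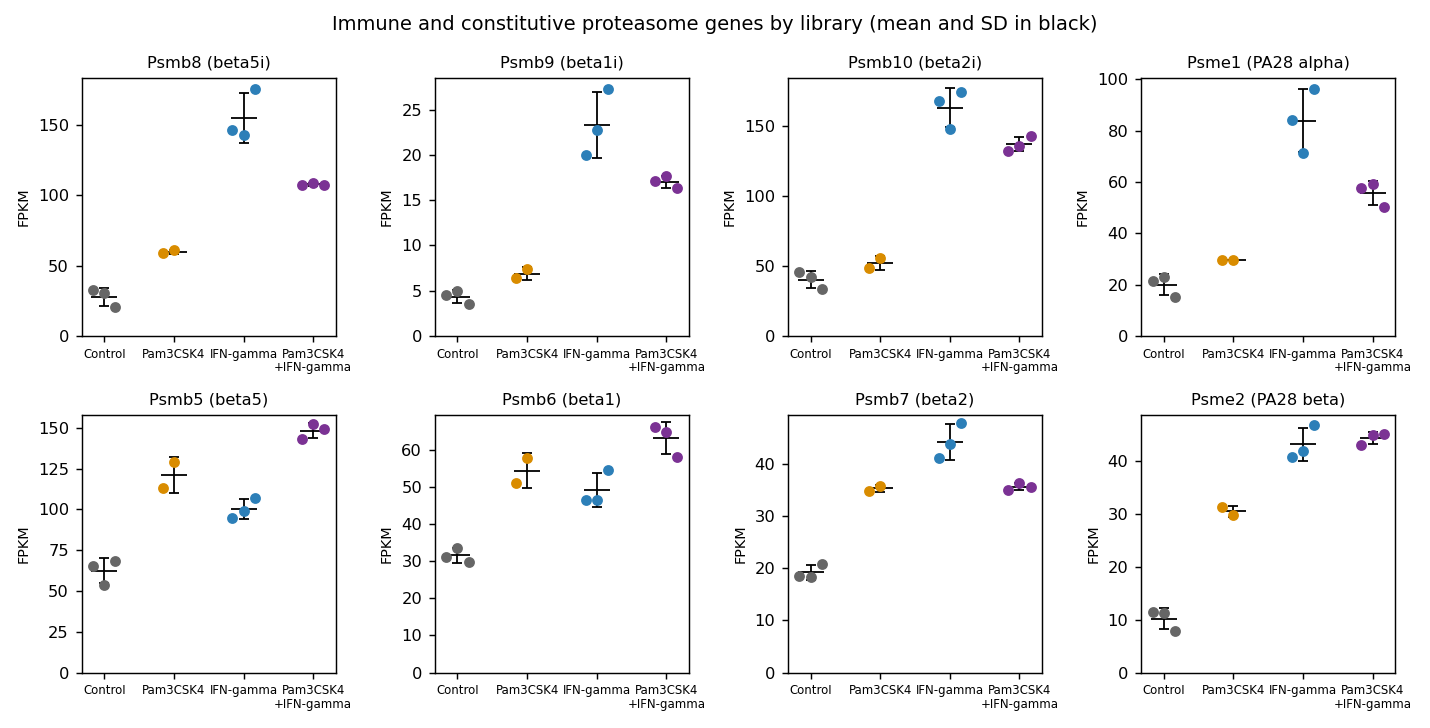
Levels in FPKM (vertical axis, from 0, a separate scale for each gene) of the 5 immune and 3 constitutive genes, with 1 point for each library in the 4 groups and the mean and SD in black. Psmb8 stands at 143 to 175 FPKM with IFN-gamma and at 107 to 109 FPKM with both agents, while Psmb5 stands at 94.9 to 107 FPKM with IFN-gamma and at 143 to 152 FPKM with both.

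Constitutive catalytic subunits rose too, by less with IFN-gamma than their immune counterparts. Psmb5 (chromosome 14, 54614120 to 54617995) was at 65.2, 53.9 and 68.4 FPKM in Control, 113 and 129 FPKM with Pam3CSK4, 94.9, 99.2 and 107 FPKM with IFN-gamma, and 143, 152 and 149 FPKM with both. It was highest in the combined libraries, which did not overlap any other group. The log2 change was 0.94 ± 0.11 with Pam3CSK4 (edgeR adjusted p = 0.000164), 0.79 ± 0.10 with IFN-gamma (adjusted p = 0.000288) and 1.34 ± 0.10 with both (adjusted p = 6.97e-06). Against IFN-gamma alone the combined group was higher by 0.55 ± 0.10 (adjusted p = 0.00252), the opposite direction to the difference of -0.53 for Psmb8. A near-identical copy of Psmb5, Gm3375 (98.9% over 796 aligned bases), has no values in the deposited table, so its part in the reads cannot be told.

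Psmb6 (chromosome 11, 70525367 to 70527858) was at 31.2, 33.7 and 29.8 FPKM in Control and at 51.1 and 57.8 FPKM with Pam3CSK4. Its levels were 46.5, 46.6 and 54.6 FPKM with IFN-gamma and 66.3, 65.0 and 58.2 FPKM with both. The single-agent groups overlapped each other, and the combined libraries lay above both. On the log2 scale the change was 0.77 ± 0.14, 0.74 ± 0.13 and 1.09 ± 0.13 (edgeR adjusted p = 0.00204, 0.00152 and 0.000103). The combined group against IFN-gamma alone gave 0.35 ± 0.13, which did not pass (adjusted p = 0.0586) but did without the 3 stromal-marked libraries (0.36, adjusted p = 0.0393), without Control replicate 3 alone (0.35, adjusted p = 0.0227) and without IFN-gamma replicate 3 (0.46, adjusted p = 0.0286).

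Psmb7 (chromosome 2, 38588036 to 38644087) followed the other order. It was at 18.5, 18.4 and 20.8 FPKM in Control, 34.9 and 35.9 FPKM with Pam3CSK4, 41.1, 43.8 and 47.9 FPKM with IFN-gamma, and 35.1, 36.4 and 35.6 FPKM with both. Here the combined libraries overlapped those given Pam3CSK4 alone and lay below every IFN-gamma library. Against Control, the log2 difference was 0.87 ± 0.09 with Pam3CSK4 (edgeR adjusted p = 9.54e-05), 1.31 ± 0.09 with IFN-gamma (adjusted p = 4.62e-06) and 0.99 ± 0.09 with both (adjusted p = 1.56e-05). In the combined group it fell by 0.32 ± 0.08 against IFN-gamma alone (adjusted p = 0.0169), a call lost without IFN-gamma replicate 3 (adjusted p = 0.0548), combined replicate 1 (0.0657) or combined replicate 3 (0.0595). Psmb7 shares 405 exonic bases with Nek6, a kinase gene on the opposite strand.

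Set side by side in FPKM, the catalytic pairs shifted toward the immune subunit with IFN-gamma. Psmb8 made up 33.1, 36.3 and 22.9% of the summed level of Psmb8 and Psmb5 in Control and 34.2 and 32.0% with Pam3CSK4. It made up 60.7, 59.0 and 62.2% with IFN-gamma and 42.9, 41.7 and 41.9% with both. So in FPKM, Psmb8 exceeded Psmb5 only in the 3 libraries given IFN-gamma alone. Psmb9 stayed below Psmb6 in all 11 libraries, at 10.5 to 12.8% of the pair in Control, 11.1 and 11.3% with Pam3CSK4, 30.1 to 33.3% with IFN-gamma and 20.5 to 21.9% with both. Psmb10 exceeded Psmb7 in all 11, at 61.7 to 71.1%, 58.2 and 60.8%, 77.2 to 80.3% and 78.9 to 80.1%, so that the 2 groups given IFN-gamma overlapped in this pair. Over the 6 catalytic genes, the immune share was 32.5 to 42.3% in Control, 35.7 and 36.3% with Pam3CSK4, 62.3 to 64.7% with IFN-gamma and 50.9 to 52.4% with both. In counts, which are not scaled by gene length, Psmb8 exceeded Psmb5 in every group, with 5142 against 2663 in Control. Psmb10 had fewer counts than Psmb7 in Control (2473 and 3348) and with Pam3CSK4 (2223 and 4254). Psmb9 had fewer than Psmb6 in each group. Which gene of a pair is higher, and the size of each share, thus depend on the lengths used for FPKM. Differences in log2 ratio between groups do not. These are transcript shares and say nothing of assembled particles.

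Each pair's log2 ratio was tested with a two-sided exact permutation test of the libraries given an agent against those not given it, permuted within the levels of the other agent (200 assignments, smallest p = 0.005; 6 tests adjusted together). IFN-gamma raised the ratio of Psmb8 to Psmb5 by 1.19, that of Psmb9 to Psmb6 by 1.45 and that of Psmb10 to Psmb7 by 1.11 on the log2 scale (exact p = 0.005, adjusted p = 0.01 for each). These are averages over libraries without and with Pam3CSK4, in which the differences were 1.81 and 0.56 for Psmb8 to Psmb5, 1.80 and 1.10 for Psmb9 to Psmb6, and 0.82 and 1.39 for Psmb10 to Psmb7. The Pam3CSK4 difference of Psmb9 to Psmb6 was -0.46 (exact p = 0.02, adjusted p = 0.03), made of -0.11 without IFN-gamma and -0.80 with it. It did not pass without Control replicate 1 or 2 or either Pam3CSK4 library (adjusted p = 0.075 for each). For Psmb8 to Psmb5 the Pam3CSK4 difference was -0.45 (exact p = 0.075, adjusted p = 0.09), made of 0.18 without IFN-gamma and -1.08 with it. Without Control replicate 3, where mural and fibroblast transcripts were highest and Psmb8, Psmb9, Psmb10, Psme1 and Psme2 lowest among Control libraries, it was -0.59 and passed (exact test, adjusted p = 0.04). The part of those cells in the Control levels was not tested. For Psmb10 to Psmb7 the Pam3CSK4 difference was -0.22, made of -0.51 without IFN-gamma and 0.06 with it (exact p = 0.24, adjusted p = 0.24).

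**Figure D3:**
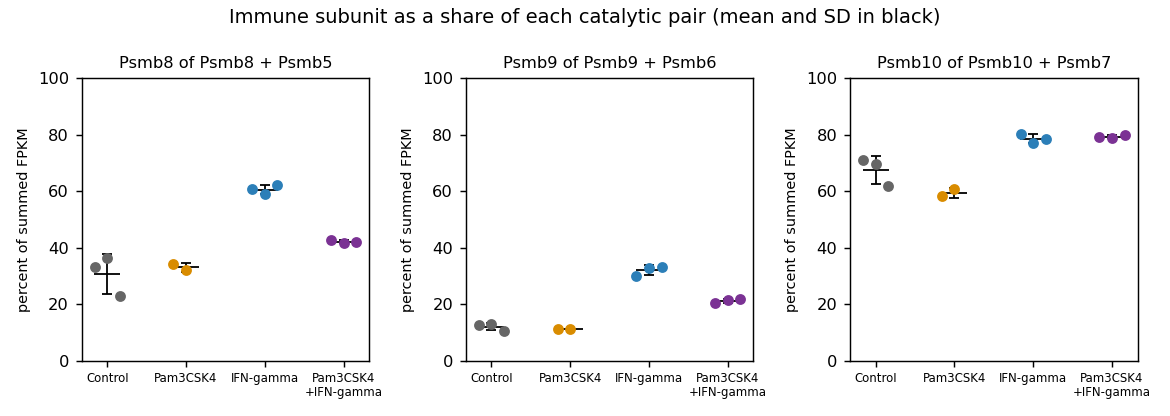
Immune subunit as a percentage of the summed FPKM of its catalytic pair (vertical axis, 0 to 100%) in each library of the 4 groups, with the mean and SD in black. Psmb8 takes 59.0 to 62.2% of its pair with IFN-gamma and 41.7 to 42.9% with both agents, while Psmb10 takes 77.2 to 80.3% and 78.9 to 80.1%.

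The sequence ahead of the catalytic genes is shown because the immune and constitutive members moved differently. RefSeq promoter entries on GRCm38.p6 were found for 40 of the 48 members, and the 250 bases before each start were searched on both strands for 4 motifs. These were the interferon-gamma-activated site TTCNNNGAA, the interferon-stimulated response element (GAAA, any 2 bases, then GAAA), the antioxidant response core TGACNNNGC and the kappa-B motif. Among all 32851 windows of that length, 7.02%, 2.98%, 10.2% and 3.9% held them. Among the 40 member windows, 2, 3, 5 and 1 did. Psmb8 held the first, 97 to 89 bases before its RefSeq start (chr17:34198088-34198116, plus strand), in bases that GENCODE places inside an annotated exon of Psmb8; Psmb9, Psmb10, Psme1 and Psme2 had none of the 4 in this window. Psmb5 (chr14:54618024-54618052, minus strand) and Psmb6 (chr11:70525107-70525356, plus strand) both held the antioxidant core, at 47 to 39 and 9 to 1 bases before the start; Psmb7 had no entry. A match describes letters only and is not a bound site. Each sequence runs 5′ to 3′ along the gene's strand, with the match in capitals.
Psmb8: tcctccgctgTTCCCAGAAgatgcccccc
Psmb5: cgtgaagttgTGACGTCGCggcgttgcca
Psmb6: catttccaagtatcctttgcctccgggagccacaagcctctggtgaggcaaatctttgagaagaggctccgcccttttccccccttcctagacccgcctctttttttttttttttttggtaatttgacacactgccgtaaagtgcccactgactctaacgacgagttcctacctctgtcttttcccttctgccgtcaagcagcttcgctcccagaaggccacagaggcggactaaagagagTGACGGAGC

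The rest of the 20S core, 8 alpha subunits and 4 structural beta subunits that carry no active site, rose with either agent. With Pam3CSK4 11 of the 12 were higher than in Control (median log2 change 0.64), with IFN-gamma 11 (0.77) and with both 12 (0.76). Over all genes tested 20.0%, 20.0% and 23.4% were higher. The alpha subunits differed in which agent moved them more. Psma6 was at 45.9 to 55.3 FPKM in Control, 126 and 114 FPKM with Pam3CSK4, 62.4 to 67.3 FPKM with IFN-gamma and 96.9 to 107 FPKM with both, so that no group overlapped another. On the log2 scale the change was 1.26 ± 0.08 with Pam3CSK4 (edgeR adjusted p = 6.34e-06) and 0.51 ± 0.08 with IFN-gamma (adjusted p = 0.000681). In a comparison added after the data were seen, Psma6 was lower with IFN-gamma than with Pam3CSK4 by 0.75 ± 0.08 (difference -0.75, adjusted p = 0.000104). In that comparison 16 members were higher, against 19.6% of all genes, and 9 lower, against 18.5%.

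Psma5 and Psma7 went the other way. Psma7 was at 19.8 to 25.4 FPKM in Control, 32.6 and 33.8 FPKM with Pam3CSK4, 42.9 to 49.2 FPKM with IFN-gamma and 39.5 to 42.6 FPKM with both. Against Control, the log2 difference was 0.60 ± 0.10 with Pam3CSK4 and 1.20 ± 0.09 with IFN-gamma, and IFN-gamma exceeded Pam3CSK4 by 0.60 ± 0.10 (edgeR adjusted p = 0.00118). Psma5 changed by 0.97 ± 0.08 and 1.41 ± 0.07, a difference of 0.44 ± 0.08 (adjusted p = 0.00219). Its copy Gm8394, 98.6% identical over 952 bases, held 68% of the counts of Psma5, so the split of reads between them is uncertain. Psma8, the low-level member, changed by 1.27 ± 0.32 with Pam3CSK4 (adjusted p = 0.0115), which did not pass without Pam3CSK4 replicate 2 (adjusted p = 0.0607). Among structural beta subunits the changes were 0.19 to 0.68 with Pam3CSK4, where Psmb1 did not pass (0.19 ± 0.09, adjusted p = 0.119), and 0.45 to 0.84 with IFN-gamma.

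The 19S regulatory particle showed broad, smaller rises. Of its 17 genes, 16 were higher with Pam3CSK4 (median log2 change 0.59), 14 with IFN-gamma (0.40) and 16 with both (0.52), and none was lower. Over all genes tested 20.0%, 20.0% and 23.4% were higher, and 21.4%, 21.6% and 24.2% lower. Its summed level was 421 to 563 FPKM in Control, 684 and 702 FPKM with Pam3CSK4, 579 to 612 FPKM with IFN-gamma and 631 to 673 FPKM with both. Pam3CSK4 libraries were thus highest and Control lowest, with no overlap between groups. The largest change belonged to Psmd11, a lid subunit, at 5.18 to 7.35 FPKM in Control, 12.1 and 13.02 FPKM with Pam3CSK4, 6.27 to 6.97 FPKM with IFN-gamma and 10.6 to 11.0 FPKM with both. Its log2 change was 1.05 ± 0.10 with Pam3CSK4 (edgeR adjusted p = 5.67e-05) and 0.26 ± 0.09 with IFN-gamma, which did not pass (adjusted p = 0.0529), and the 2 single-agent groups differed by -0.80 ± 0.10 (IFN-gamma minus Pam3CSK4, adjusted p = 0.000306). Psmd2, the base subunit Rpn1, changed by 0.85 ± 0.08 and 0.45 ± 0.07, and the ATPase Psmc1 by 0.66 ± 0.09 and 0.36 ± 0.08.

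Psmc3 was the ATPase with the larger value under IFN-gamma, 0.73 ± 0.08 against 0.29 ± 0.09 with Pam3CSK4, a difference of 0.43 ± 0.09 (edgeR adjusted p = 0.00582, and 0.0533 without Pam3CSK4 replicate 1). Psmd8 was the one 19S gene that passed in no comparison with Control, at 41.7 to 84.8 FPKM in its Control libraries, with Control replicate 3 the highest. No 19S gene passed between the combined group and Pam3CSK4 alone, where log2 differences ran from -0.22 to 0.32, at an edgeR test that called 6.06% of all genes higher and 3.04% lower.

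Assembly factors followed neither block as a whole. Psmd10 (gankyrin), which chaperones the 19S base, was at 14.8, 13.5 and 13.2 FPKM in Control, 36.6 and 37.0 FPKM with Pam3CSK4, 18.0, 16.5 and 15.7 FPKM with IFN-gamma and 29.9, 29.4 and 27.8 FPKM with both. The 2 groups given Pam3CSK4 stood apart from the 2 that were not. On the log2 scale the change was 1.39 ± 0.10 with Pam3CSK4 (edgeR adjusted p = 9.58e-06), 0.37 ± 0.09 with IFN-gamma (adjusted p = 0.0102) and 0.79 ± 0.09 for the combined group against IFN-gamma alone (adjusted p = 0.000171). Psmd5, another 19S base chaperone, changed by 0.91 ± 0.23 with Pam3CSK4 (adjusted p = 0.0116, and 0.0703 without Pam3CSK4 replicate 2) and by -0.20 ± 0.21 with IFN-gamma (adjusted p = 0.481).

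Of the 4 chaperones that pair up to build the 20S alpha ring, none passed with Pam3CSK4 and 1, Psmg4, with IFN-gamma. Over all genes tested, 20.0% were higher and 21.4% lower with Pam3CSK4, and 20.0% higher and 21.6% lower with IFN-gamma. The 1 of 4 higher with IFN-gamma thus lay near the share of all genes. Psmg4 was at 12.9, 9.63 and 11.4 FPKM in Control, 12.1 and 9.63 FPKM with Pam3CSK4, 21.2, 17.7 and 17.1 FPKM with IFN-gamma and 15.7, 17.8 and 15.8 FPKM with both. The libraries given IFN-gamma lay above all those not given it. Against Control, the log2 difference was 0.82 ± 0.15 with IFN-gamma (edgeR adjusted p = 0.00246) and 0.63 ± 0.15 with both (adjusted p = 0.00752). In the combined group Psmg1 and Psmg2 fell by 0.56 ± 0.15 and 0.41 ± 0.13 against IFN-gamma alone (adjusted p = 0.0179 and 0.0328). The call for Psmg1 was lost without replicate 3 of IFN-gamma or replicate 2 or 3 of the combined group (adjusted p = 0.069 to 0.0721). That for Psmg2 was lost without Pam3CSK4 replicate 1, replicate 1 or 3 of IFN-gamma or any 1 combined library (adjusted p = 0.0526 to 0.0954), and without the 3 stromal-marked libraries together (adjusted p = 0.0896).

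Psmf1 encodes PI31, known as an inhibitor of the 20S core in the test tube. It was at 2.68, 2.84 and 3.28 FPKM in Control, 2.65 and 2.19 FPKM with Pam3CSK4, 6.05, 6.71 and 6.95 FPKM with IFN-gamma, and 3.23, 3.39 and 3.28 FPKM with both. Only the 3 libraries given IFN-gamma alone stood above the rest, and the combined libraries overlapped the upper end of the Control range. The log2 change was 1.27 ± 0.10 with IFN-gamma (edgeR adjusted p = 1.1e-05), and in the combined group Psmf1 fell by 1.00 ± 0.10 against IFN-gamma alone (adjusted p = 5.66e-05). Pam3CSK4 alone gave -0.29 ± 0.11, which did not pass (adjusted p = 0.0564). The combined group was above Control by 0.27 ± 0.09 (adjusted p = 0.0415), a call lost when Control replicate 1 or 2, replicate 2 of IFN-gamma, or any 1 combined library was left out (adjusted p = 0.0557 to 0.125).

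Pomp, the maturation factor that escorts the beta ring and is not a member by name, was examined with the proteasome-bound factors. It was at 17.6, 15.6 and 12.9 FPKM in Control, 16.02 and 15.3 FPKM with Pam3CSK4, 34.4, 30.2 and 33.0 FPKM with IFN-gamma, and 18.8, 23.4 and 23.7 FPKM with both. It resembled Psmf1 in that the combined libraries lay well below those given IFN-gamma alone. Its log2 change was 1.17 ± 0.16 with IFN-gamma (edgeR adjusted p = 0.000409), and in the combined group it fell by 0.57 ± 0.16 against IFN-gamma alone (adjusted p = 0.0199), a call lost without IFN-gamma replicate 1 (adjusted p = 0.0527), IFN-gamma replicate 3 (0.0582) or combined replicate 1 (0.0775).

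The list held other activators too. Psme3, the nuclear PA28 gamma, changed by 0.46 ± 0.10 with Pam3CSK4 (edgeR adjusted p = 0.00515) and by 0.34 ± 0.09 with IFN-gamma (adjusted p = 0.0145, and 0.0603 without IFN-gamma replicate 3). Its difference with both agents was 0.23 ± 0.09 (adjusted p = 0.0664). Psme4, the activator PA200, was at 9.63 to 12.4 FPKM in Control, 14.7 and 12.8 FPKM with Pam3CSK4, 9.45 to 11.1 FPKM with IFN-gamma and 15.5 to 16.1 FPKM with both. The change with Pam3CSK4 was 0.36 ± 0.09 (edgeR adjusted p = 0.0103, and 0.11 without Pam3CSK4 replicate 1). Its level was highest in the combined libraries, above Control by 0.66 ± 0.08 (edgeR adjusted p = 0.000142) and above IFN-gamma alone by 0.59 ± 0.08 (adjusted p = 0.000524).

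**Figure D4:**
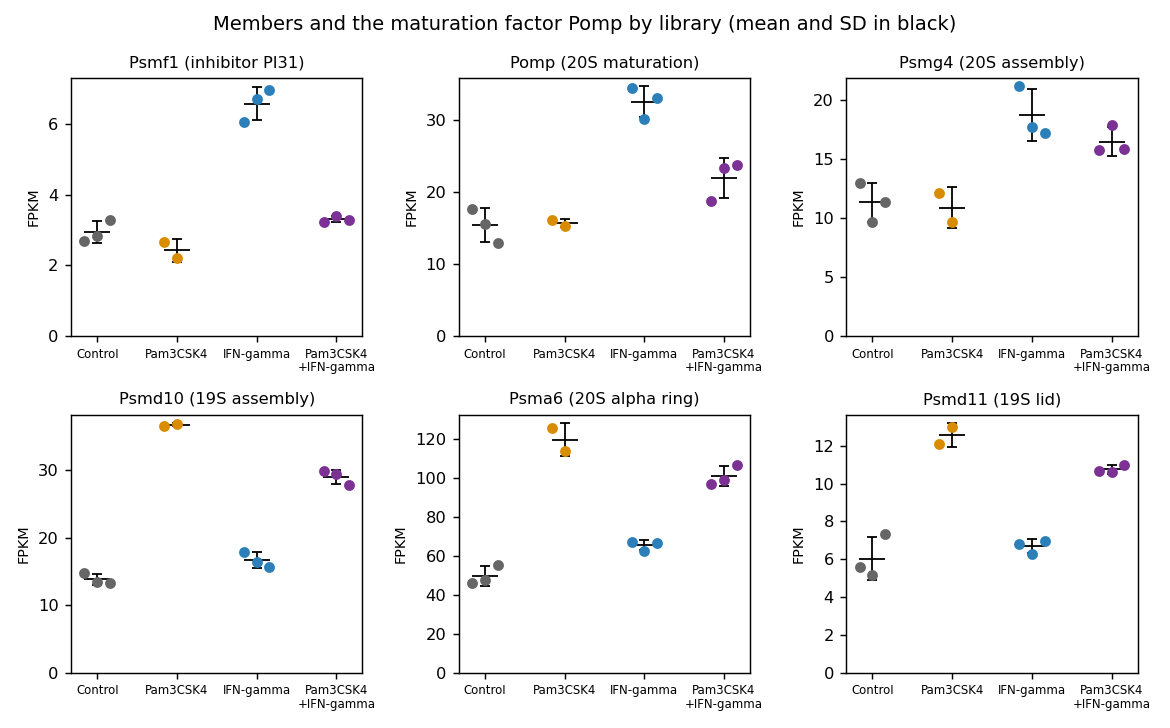
Levels in FPKM (vertical axis, from 0, a separate scale for each gene) of 5 members and Pomp in every library of the 4 groups, with the mean and SD in black. Psmf1, Pomp and Psmg4 have their highest mean with IFN-gamma, whereas Psmd10, Psma6 and Psmd11 are highest with Pam3CSK4 (36.6 and 37.0 FPKM for Psmd10) and stay raised in the combined group.

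The combined group was also compared with IFN-gamma alone. Here 9 of the 48 members were higher, against 17.0% of all genes, and 7 lower, against 17.2%, shares near those of all genes. The higher ones included Psmd10, Psmd11, Psma6 and Psmb5. The 7 lower ones were Psmf1, Psme1, Psmb7, Psmg1, Psmg2, Psmc3 and Psma4. Their number was 1 without IFN-gamma replicate 3 or combined replicate 3, 2 without combined replicate 1 or 2, and 8 without the 3 stromal-marked libraries.

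Against Pam3CSK4 alone, 9 of the 48 members were higher in the combined group, a larger share than the 6.06% of all genes tested, and 0 lower, where 3.04% of all genes were. The 9 were Psmb8, Psmb9, Psmb10, Psme1, Psme2b, Psma5, Psma7, Psmg4 and Psmf1. The median log2 difference over the 48 was 0.07. With 2 Pam3CSK4 libraries this comparison leans on each: 3 members passed without replicate 1 and 2 without replicate 2, while 5, 5 and 6 did without combined replicates 1, 2 and 3. Without the 3 stromal-marked libraries 11 were higher.

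The interaction term, the effect of both agents minus the sum of their separate effects, asks whether the effects add on the log2 scale. It was negative and past the threshold in 31 members and positive in none, where 8.01% of all genes were called in each direction. The most negative values belonged to Psme2b (-2.01 ± 0.18, edgeR adjusted p = 0.000317), Psmb8 (-1.60 ± 0.30, adjusted p = 0.00809) and Psme2 (-1.52 ± 0.26, adjusted p = 0.00536). Psmb7 gave -1.19 ± 0.13 (adjusted p = 0.000662), Psme1 -1.14 ± 0.29 (adjusted p = 0.0291) and Psmb9 -1.10 ± 0.28 (adjusted p = 0.0267). The values for Psmb10 (-0.60 ± 0.23), Psmb5 (-0.39 ± 0.15) and Psmb6 (-0.42 ± 0.19) did not pass (adjusted p = 0.107, 0.11 and 0.163). Psme4 was the sole member with a positive value, 0.23 ± 0.12, which did not pass (adjusted p = 0.238).

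The count of negative interactions was 13 without Pam3CSK4 replicate 2 and 20 without combined replicate 1, and 32 without the 3 stromal-marked libraries. For Psme1 the call was lost without either Pam3CSK4 library, IFN-gamma replicate 3 or any 1 combined library (adjusted p = 0.0539 to 0.102), and for Psmb9 without Pam3CSK4 replicate 2, IFN-gamma replicate 3 or any 1 combined library (adjusted p = 0.0526 to 0.118). Put as separate effects, the IFN-gamma difference was smaller with Pam3CSK4 than without it in 47 of the 48 members, against 45.5% of all genes tested, and its median fell from 0.60 to 0.07 on the log2 scale. These 2 contrasts share no libraries. Across the 48 members, which share libraries and scaling, Pearson's r between them was 0.849 and Spearman's rho 0.729, given as a description.

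**Figure D5:**
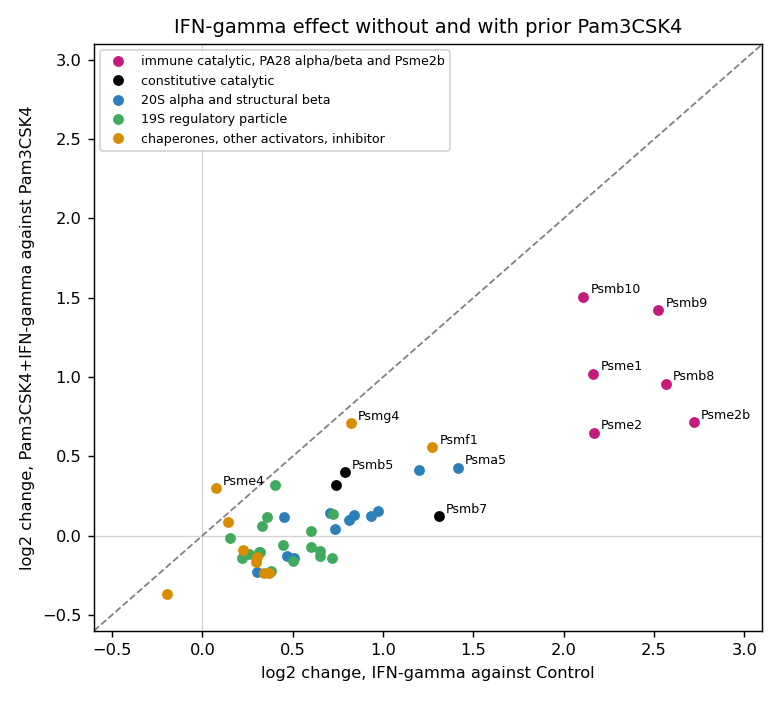
Log2 change with IFN-gamma in cells without Pam3CSK4 (horizontal axis) and after Pam3CSK4 (vertical axis), with 1 point for each of the 48 members, coloured by role; the dashed line marks equal effects. Of the 48 points, 47 lie below the line, and the immune and PA28 genes remain farthest to the right.

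Known regulators of the immune subunits were set beside them. Irf1, a transcription factor of the interferon response, was at 6.18 to 7.24 FPKM in Control, 5.61 and 4.60 FPKM with Pam3CSK4, 135 to 165 FPKM with IFN-gamma and 82.5 to 94.8 FPKM with both. On the log2 scale the change was 4.55 ± 0.16 with IFN-gamma (edgeR adjusted p = 1.21e-07), and in the combined group it fell by 0.74 ± 0.14 against IFN-gamma alone (adjusted p = 0.00325). Its difference with Pam3CSK4 alone, -0.41 ± 0.16, did not pass (adjusted p = 0.0692) but did without Control replicate 3 (adjusted p = 0.0187) and without the 3 stromal-marked libraries (adjusted p = 0.0176). Nlrc5, the transactivator of MHC class I genes, rose by 1.59 ± 0.13 with Pam3CSK4 and 3.80 ± 0.13 with IFN-gamma (edgeR adjusted p = 2.29e-05 and 1.12e-07).

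The peptide trimming and transport genes handle what the proteasome releases. Of the 11 found, 5 were higher and 2 lower with Pam3CSK4, 6 higher with IFN-gamma and 9 higher with both. Over all genes tested 20.0% were higher and 21.4% lower with Pam3CSK4, 20.0% higher with IFN-gamma and 23.4% higher with both. Tap1, which with Tap2 forms the peptide transporter, was at 3.54 to 5.09 FPKM in Control, 12.2 and 11.1 FPKM with Pam3CSK4, 45.1 to 55.2 FPKM with IFN-gamma and 46.1 to 48.5 FPKM with both. Lap3, an aminopeptidase, was at 14.2 to 16.8 FPKM in Control, 12.8 and 10.8 FPKM with Pam3CSK4, 97.4 to 119 FPKM with IFN-gamma and 34.8 to 40.0 FPKM with both. The Tap1 levels of the 2 groups given IFN-gamma overlapped, whereas Lap3 in the combined group fell by 1.59 ± 0.12 on the log2 scale against IFN-gamma alone (edgeR adjusted p = 1.36e-05).

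The other partners were counted in the same way. Among 20 proteasome-bound factors and regulators of subunit expression, 7 were higher and 4 lower with Pam3CSK4, and 5 were higher and 4 lower with IFN-gamma, with median log2 changes of 0.12 and 0.06. Over all genes tested 20.0% were higher and 21.4% lower with Pam3CSK4, and 20.0% higher and 21.6% lower with IFN-gamma, so that apart from the 7 higher with Pam3CSK4 the counts lay near those of all genes. Adrm1, the 19S ubiquitin receptor Rpn13, rose by 0.52 ± 0.09 and 0.45 ± 0.08, and Vcp, the unfoldase that delivers substrates, by 0.70 ± 0.07 and 0.32 ± 0.07 (edgeR adjusted p = 0.00116, 0.00152, 8.3e-05 and 0.00435). Akirin2, which imports the proteasome into the nucleus, fell by 0.52 ± 0.12 and 0.41 ± 0.11 (adjusted p = 0.00746, and 0.0612 without Pam3CSK4 replicate 1, and 0.0127). Nfe2l1, the factor known to raise proteasome genes when degradation fails, did not pass in either comparison (0.10 ± 0.47 and -0.88 ± 0.42). Of 7 ubiquitin genes, Ubd, the interferon-inducible modifier FAT10, had 0 counts in all 5 libraries without IFN-gamma. With IFN-gamma it had 104 counts in 3 libraries, at least 33.5-fold higher than Control when Control is set to 3 counts over the group, and after Pam3CSK4 107 counts, at least 20.1-fold higher than Pam3CSK4 alone. Combined replicate 3, one of the stromal-marked libraries, held 69 of these 107 counts, and without it the other 2 libraries had 38 counts, at least 10.6-fold higher than Pam3CSK4 alone.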

How the data were processed

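RNA from 11 libraries of cultured mouse microglia in 4 groups was sequenced. The authors deposited counts per gene and FPKM values beside them, per the file headers. The submitters' processing notes name mm10 as the build, the aligner TopHat2 2.1.0, and Cuffdiff with Cufflinks 2.1.1. Which counting tool, annotation and strand setting were used is not given in the sources used here. FPKM is used for levels and for the filter (at least 1 in at least 2 libraries).

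Deposited counts were tested with edgeR 4.0.16 (quasi-likelihood test, TMM scaling, R 4.3.3), with all 11 libraries in 1 fit and Benjamini-Hochberg adjustment over 10938 genes at 0.05. Ratios of catalytic pairs were tested on log2 FPKM ratios by exact permutation. The edgeR test of IFN-gamma against Control was tried on simulated counts. The interaction term, the other contrasts and the permutation tests were not. Alternatives were DESeq2 1.42.0, limma 3.58.1 on log2(FPKM + 1), other filters and scaling, a replicate block and leaving out libraries; the comparison of IFN-gamma with Pam3CSK4 and the summing of near-identical copies were added after the data were seen. Replicate numbers recur across groups. Deviations of same-numbered libraries from their group means correlated at -0.72 to 0.72 over 15 pairs, of which 6 were over 0.1. The 3 stromal-marked libraries correlated with each other at 0.715 to 0.81 whatever their number, so this check cannot decide whether samples were paired. No label says that they were, so the main fit did not pair samples by number.

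The genes and partner lists were chosen with earlier results of these data known. Named genes are the 8 immune and constitutive contrast genes, members failing the filter, the 2 regulators Irf1 and Nlrc5 and, per other role or list, up to 3 called genes with the largest change in each direction of a comparison, besides extremes of a range; Psmd8, Psmb1 and Nfe2l1 were chosen after their values were seen. A further gene of the rule is not reported here.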

Additional observations from a re-analysis of the deposited data

Results flagged for a closer look

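Each gene here was singled out because the effect of IFN-gamma differed with and without Pam3CSK4, by the interaction term of the edgeR fit at an adjusted p under 0.05. Values are that term on the log2 scale. A negative value means that both agents together gave less than the sum of their separate changes.

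Among the immune genes and their constitutive counterparts the term was negative for Psmb8 (-1.60), Psmb9 (-1.10), Psme1 (-1.14), Psme2 (-1.52), Psme2b (-2.01) and Psmb7 (-1.19). In the rest of the 20S core it was negative for Psma1 (-0.60), Psma2 (-0.82), Psma3 (-0.71), Psma4 (-0.81), Psma5 (-0.99), Psma6 (-0.64), Psma7 (-0.78), Psmb2 (-0.71), Psmb3 (-0.57) and Psmb4 (-0.69). In the 19S ATPase ring it was negative for Psmc3 (-0.59), Psmc4 (-0.78) and Psmc5 (-0.57), and in the non-ATPase subunits for Psmd1 (-0.36), Psmd2 (-0.51), Psmd3 (-0.67), Psmd4 (-0.60), Psmd6 (-0.41), Psmd7 (-0.68), Psmd12 (-0.85), Psmd13 (-0.43) and Psmd14 (-0.75). The 19S chaperone, the inhibitor and the nuclear activator gave negative terms as well, Psmd10 (-0.60), Psmf1 (-0.72) and Psme3 (-0.58).

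Partners of the proteasome had terms of both signs. The ubiquitin receptor, the deubiquitinase bound to it and the unfoldase gave Adrm1 (-0.53), Uchl5 (-0.65) and Vcp (-0.50). The peptide handling genes and regulators gave Lap3 (-1.14), Tap1 (-1.39), Tapbp (-1.21) and Nlrc5 (-1.58). The shuttle factor Ubqln2 and the aminopeptidase Blmh had positive terms, Ubqln2 (0.66) and Blmh (0.50). Ubqln2 was called lower with each agent alone than in Control, and with both agents its fall was smaller than the sum. Of the 11 peptide trimming and transport genes, Blmh among them, none was called lower with IFN-gamma or with both agents. With both agents no log2 change in that list was below -0.0318. Ubqln2 changed by -0.47 with Pam3CSK4, -0.60 with IFN-gamma and -0.41 with both on the log2 scale. Blmh had means of 6.53 FPKM in Control, 5.20 with Pam3CSK4, 5.39 with IFN-gamma and 6.01 with both.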

How the results depend on the processing

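Of 231 named changes that passed, 0 changed direction under any alternative. Of 4738 alternative values for 250 named genes and comparisons, 4351 kept direction and side of the threshold, 337 no longer passed, 40 newly passed and 10 changed sign. The sign changes all concern differences near 0 that did not pass. The combined group against IFN-gamma went from 0.0052 to -0.0733 for Nlrc5 without the 3 libraries that held mural and fibroblast transcripts, and ran from -0.0894 (without IFN-gamma replicate 1) to 0.0918 over libraries left out, with -0.0184 without combined replicate 1. For Psme2 it was -0.0301 without the 3 libraries, -0.0448 with copies summed and -0.0286 to 0.12 over libraries left out. IFN-gamma against Pam3CSK4 for Psmb6 was -0.0270, 0.0269 without the 3 libraries, and -0.14 to 0.0771 over libraries left out (0.0317 and 0.0132 without IFN-gamma replicates 1 and 2).

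Counts of members moved as follows; the causes were not tested unless stated. Requiring 1 FPKM in all libraries gave 2 lower with Pam3CSK4. limma gave 1 lower in the combined group against Control and 1 against Pam3CSK4. Without the 3 libraries 1 was lower against Pam3CSK4. Without a filter 1 was lower in the combined group against IFN-gamma. With 1 library left out, 31 to 39 members were higher and 0 to 1 lower with Pam3CSK4, 37 to 42 higher with IFN-gamma, and 38 to 44 higher and 0 to 1 lower with both. The combined group had 7 to 12 higher and 1 to 10 lower against IFN-gamma, and 2 to 12 higher and 0 to 1 lower against Pam3CSK4. Negative interactions numbered 13 to 34. DESeq2 gave 40, 40 and 44 members higher against Control and 35 negative interactions.

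The IFN-gamma effect on the log2 ratios was 1.05, 1.42 and 0.96 for Psmb8 to Psmb5, Psmb9 to Psmb6 and Psmb10 to Psmb7 without the 3 libraries, and the Pam3CSK4 effect on Psmb9 to Psmb6 was -0.56. None of these passed (exact test, adjusted p = 0.0833), since fewer libraries allow fewer assignments. With 1 library left out, the Pam3CSK4 effect ran from -0.59 to -0.36 for Psmb8 to Psmb5 and from -0.51 to -0.43 for Psmb9 to Psmb6.

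With the replicate number as a block, 37, 39 and 41 members were higher against Control and 25 interactions were negative. The Pam3CSK4 change of Psmb9 (adjusted p = 0.0613) and the interactions of Psmb9 (0.0512) and Psme1 (0.0583) did not pass under the edgeR fit with that block. Low counts limit Psma8 and Ubd, and the 2 Pam3CSK4 libraries limit every contrast with that group.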
